A study of Mus musculus with 8 samples.

Results

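The Nduf genes are the nuclear genes whose symbols begin with Nduf, and 44 of them were counted among the 12551 genes measured by RNA sequencing of mouse tibialis anterior (TA) muscle. They were taken by symbol alone, without reference to their values. Libraries came from whole TA muscles of 8 male mice aged 7 weeks, 4 wild-type (WT) and 4 homozygous for the Klotho mutation (KL-/-). The mice were littermates of a commercial Klotho line on a mixed background, the mutation affects every tissue, and the muscle was snap frozen before RNA extraction. *Kl* itself was not analysed here, so the genotypes rest on the sample labels. The deposited values are featureCounts reads per gene, reported here relative to library size with TMM factors (CPM), with mean ± SD over n = 4 muscles per genotype. Fold changes are log2 of KL-/- over WT, and FDR is the Benjamini-Hochberg adjusted p of edgeR's quasi-likelihood test over all 12551 genes, with calls at an FDR under 0.05.

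Complex I, or NADH:ubiquinone oxidoreductase, is the entry point of electrons from NADH into the mitochondrial respiratory chain. Its hydrophilic arm oxidizes NADH in the matrix and passes the electrons along iron-sulfur clusters to ubiquinone, and its membrane arm pumps protons across the inner membrane. The membrane core is encoded by mitochondrial DNA, the rest is encoded in the nucleus, and assembly factors build the enzyme in modules without remaining in it. Skeletal muscle relies on this enzyme for sustained work, and oxidative fibers hold more of it than glycolytic fibers. Of the 44 genes, 7 encode core subunits of the hydrophilic arm, 9 encode accessory subunits of that arm, 18 encode accessory subunits of the membrane arm, 1 encodes the mitochondrial acyl carrier protein and 7 encode assembly factors. The other two carry the name without the role, since *Ndufa4* encodes a subunit of complex IV (cytochrome c oxidase) and *Ndufa4l2* its paralog. *Ndufs5*, *Ndufb1*, *Ndufaf8* and the mitochondrially encoded subunits were not analysed here.

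Complex I transcripts were close to equal in KL-/- and WT muscle. One of the 44 genes was higher in KL-/- muscle, *Ndufb11*, against 7.35% of all genes tested, and 2 were lower, *Ndufaf3* and *Ndufs4*, against 6.67% of all genes tested. All 4 KL-/- muscles lay above all 4 WT muscles in 1 gene and below them in 3, where 10.2% of all genes lay above and 9.47% below. The gene with separate groups that was not called was *Ndufc1*, named here after its values were seen. In 41 of the 44 genes (93.2%) the log2 fold change was smaller than 0.2 in size, as it was in 53.8% of all genes. The 95% interval of the log2 fold change lay within ±0.5 for 42 of the 44 (95.5%), the exceptions being *Ndufaf3* and *Ndufa4l2*, and it did so for 55.6% of all genes. It lay within ±0.3 for 32 of them (72.7%), compared with 24.5% of all genes. The SD of Nduf transcripts within a genotype had a median of 0.11 on the log2 scale, against 0.16 for all genes. These comparisons were not matched for expression level, and genes with fewer reads have wider intervals. In a whole muscle, fewer cells of a type and less RNA per cell cannot be told apart.

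**Figure D1:**
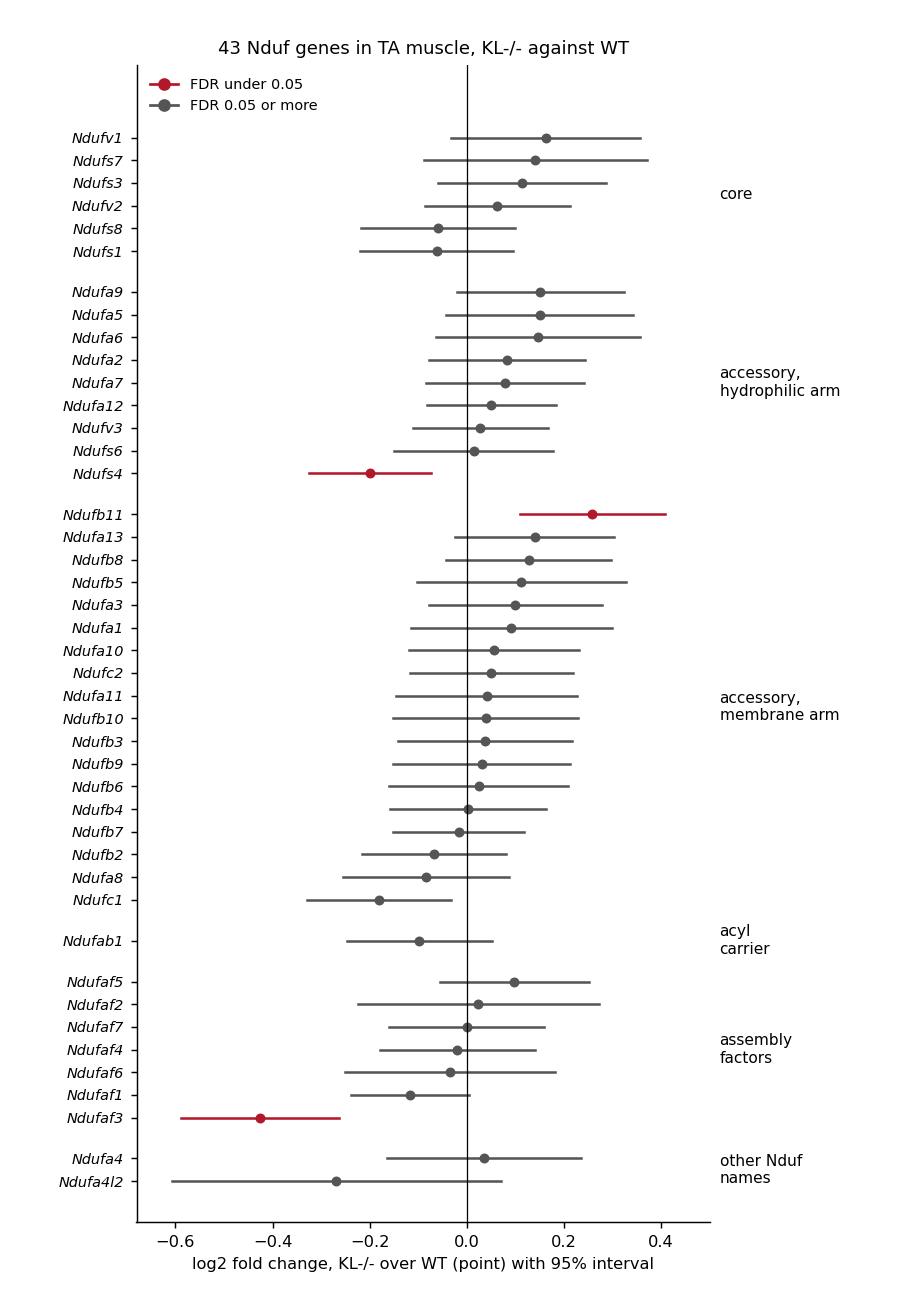
Log2 fold change of 43 of the 44 Nduf genes, KL-/- over WT, with its 95% interval on the horizontal axis, the genes being grouped by role on the vertical axis, and n = 4 muscles per genotype. Red marks the 3 genes with an FDR under 0.05, *Ndufs4*, *Ndufb11* and *Ndufaf3*, and for all but 4 of the genes shown the interval crosses 0, the fourth being *Ndufc1*.

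The direction of the small differences depended on how libraries were scaled. With TMM factors, 30 of the 44 log2 fold changes were positive, with a median of 0.04 against -0.02 for all genes, whereas with library totals 8 were positive, with a median of -0.08 against -0.13 for all genes. A change of scaling moves all genes by nearly the same amount, so differences from the median of all genes stay alike by construction. The Nduf median lay 0.05 above that median under either scaling, and 31 of the 44 genes were above it in both. That difference moved with single libraries under TMM factors, to 0.02 without WT replicate 3 or KL-/- replicate 4, 0.03 without KL-/- replicate 3 and 0.11 without KL-/- replicate 2. Library totals gave 0 Nduf genes higher and 5 lower, namely *Ndufab1*, *Ndufaf1*, *Ndufaf3*, *Ndufc1* and *Ndufs4*. Across all genes they also moved the share of higher genes among the called ones from 52.4% to 18.8%. Nduf transcripts are short, with 39 of the 44 in the shortest of 5 equal classes of exon length, up to 1677 bases, and that class as a whole had a median of 0.01. When the relation between gene length and expression was removed from each library, the Nduf median lay below that of all genes by a difference of -0.02, 23 of the 44 log2 fold changes were positive, and 62.7% of called genes were higher.

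*Ndufaf3* had the clearest difference of the family. It encodes an assembly factor that works with the *Ndufaf4* product early in assembly, on the module that binds ubiquinone. The gene lies on chromosome 9, from 108565865 to 108567342 on the minus strand of mm10. In WT muscles its level was 15.9, 14.5, 15.2 and 16.4 CPM for replicates 1 to 4, and in KL-/- muscles it was 11.3, 11.5, 11.3 and 11.99 CPM. Every KL-/- muscle was below every WT muscle, and the KL-/- muscles were closer to each other than the WT muscles were. WT muscles averaged 15.5 ± 0.828 CPM and KL-/- muscles 11.5 ± 0.313 CPM, which is -0.43 on the log2 scale (SE 0.073, 95% interval -0.59 to -0.26, FDR = 0.00818). It was called in all 8 fits that left out 1 library, with log2 fold changes of -0.45 to -0.40. It was also called in all 10 other settings, with FDR values of 0.000191 to 0.0445. Of these settings, no filter on low counts repeated the main fit, since the filter removed no gene.

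*Ndufb11*, an X-linked gene for an accessory subunit of the membrane arm, was the 1 called gene with a higher level. It lies on chromosome X, from 20615326 to 20617564 on the minus strand. The WT muscles had 261, 253, 228 and 248 CPM and the KL-/- muscles had 271, 293, 308 and 311 CPM. The groups did not overlap, although the gap between the highest WT and the lowest KL-/- muscle was smaller than the range within either genotype. Means were 247 ± 14.0 CPM for WT and 296 ± 18.3 CPM for KL-/- muscles, so the difference was 0.26 (SE 0.067, 95% interval 0.11 to 0.41, FDR = 0.0333). The call was lost without WT replicate 2, 3 or 4 or KL-/- replicate 3 or 4, with an FDR of up to 0.0952, and with library totals, which gave 0.14 (FDR = 0.119). The gene shares 62 exon bases with *Rbm10* on the other strand and has a near copy, the pseudogene *Gm6444*, over 456 bases at 96.9% identity, and whether counting used strand is not given in the sources used here.

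*Ndufs4* encodes an accessory subunit of the hydrophilic arm, where it helps hold the NADH-oxidizing module in place, and its loss causes mitochondrial encephalopathy in mice and humans. It lies on chromosome 13, from 114287795 to 114388094 on the minus strand. Levels were 192, 179.7, 177 and 192 CPM in WT muscles and 157, 154, 168 and 165 CPM in KL-/- muscles, with no overlap. Means were 185 ± 8.12 CPM for WT and 161 ± 6.47 CPM for KL-/- muscles, so the difference was -0.20 (SE 0.056, 95% interval -0.33 to -0.07, FDR = 0.0437). This call stood near the threshold and was lost whichever single library was left out, with FDR values of 0.0540 to 0.0988, and in 5 of the 10 other settings. The earlier form of edgeR's quasi-likelihood test, which was run first, gave an FDR of 0.0516, and the newer form was then adopted, to follow an earlier processing of these counts.

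**Figure D2:**
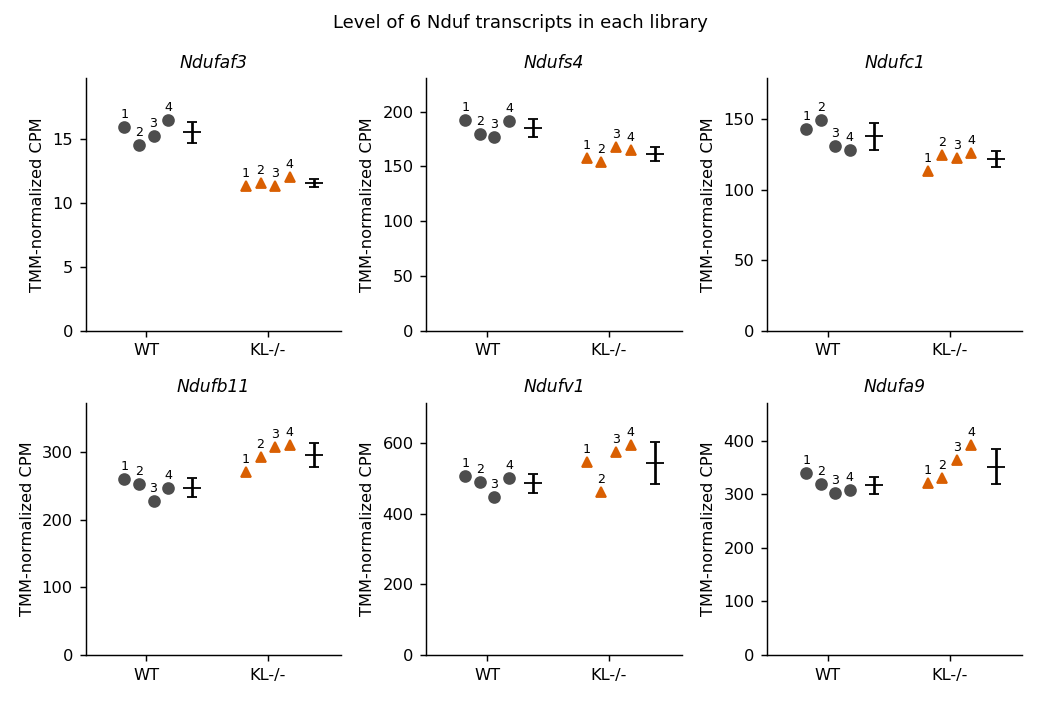
Level in TMM-normalized CPM of 6 Nduf transcripts in each library on the vertical axes, which start at 0, with WT (circles) and KL-/- (triangles) on the horizontal axes, replicate numbers beside the points and the mean ± SD of n = 4 to the right of each group. *Ndufaf3*, *Ndufs4* and *Ndufc1* are lower in every KL-/- muscle, *Ndufb11* is higher in every KL-/- muscle, and *Ndufv1* and *Ndufa9* overlap between genotypes.

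The promoters of the 3 called genes are printed because they changed in opposite directions and can be read side by side for the motifs of mitochondrial regulators described further on. Each runs 5' to 3' on the strand of its gene, from 250 bases before to 50 bases after the RefSeq start in GRCm38.p6, and capitals mark a match to a motif searched. The window of *Ndufaf3* is 9:108567387-108567686, that of *Ndufb11* is X:20617570-20617869 and that of *Ndufs4* is 13:114388045-114388344.
Ndufaf3: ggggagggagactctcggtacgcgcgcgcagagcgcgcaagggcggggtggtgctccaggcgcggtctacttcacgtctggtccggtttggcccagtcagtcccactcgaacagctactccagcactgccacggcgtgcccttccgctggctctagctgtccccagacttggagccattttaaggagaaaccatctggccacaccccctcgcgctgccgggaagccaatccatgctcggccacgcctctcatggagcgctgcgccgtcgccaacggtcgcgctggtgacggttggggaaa
Ndufb11: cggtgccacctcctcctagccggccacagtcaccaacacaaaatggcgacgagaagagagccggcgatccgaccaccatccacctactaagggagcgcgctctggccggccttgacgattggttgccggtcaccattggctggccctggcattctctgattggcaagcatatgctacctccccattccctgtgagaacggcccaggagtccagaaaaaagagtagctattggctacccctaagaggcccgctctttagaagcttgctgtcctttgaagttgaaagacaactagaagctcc
Ndufs4: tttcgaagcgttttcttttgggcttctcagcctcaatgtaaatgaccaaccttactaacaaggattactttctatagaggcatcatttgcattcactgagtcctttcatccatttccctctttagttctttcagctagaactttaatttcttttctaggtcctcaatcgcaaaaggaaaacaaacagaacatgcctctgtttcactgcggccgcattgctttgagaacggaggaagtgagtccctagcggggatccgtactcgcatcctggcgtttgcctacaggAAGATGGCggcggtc

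The 7 core subunits of the hydrophilic arm carry the flavin, the iron-sulfur clusters and the ubiquinone site. None passed the test by edgeR, DESeq2 or limma-voom, and 0 had an unadjusted p under 0.05, against 4031 of all 12551 genes tested. The log2 fold changes of these 7 genes ranged from -0.06 to 0.16 with a median of 0.10, 5 of them being positive. The largest was that of *Ndufv1*, whose product binds NADH and the flavin. Its level was 507, 490.0, 447 and 501 CPM in WT muscles and 546, 461, 575 and 595 CPM in KL-/- muscles, so KL-/- replicate 2 fell within the WT range and the other KL-/- muscles lay above it. The difference was 0.16 (SE 0.087, 95% interval -0.03 to 0.36, FDR = 0.227). Without KL-/- replicate 2 it was 0.24 and passed the test (FDR = 0.0262), and no other library left out gave that. *Ndufs1*, the largest core subunit, and *Ndufs8*, which carries iron-sulfur clusters, were the 2 core genes with negative values, both -0.06, with FDR values of 0.574 and 0.599.

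Of the 9 accessory subunits of the hydrophilic arm, 1 passed the test, *Ndufs4*, and it was the only member of that group with a negative log2 fold change. The other 8 ranged from 0.01 for *Ndufs6* to 0.15 for *Ndufa9*, whose product binds a nucleotide near the junction of the arms. *Ndufa9* had 339, 319, 302 and 308 CPM in WT muscles and 321, 330.0, 364 and 393 CPM in KL-/- muscles, and the groups overlapped through WT replicate 1. Its difference was 0.15 (SE 0.077, 95% interval -0.02 to 0.32, FDR = 0.204), and 0.09 to 0.20 when 1 library was left out. *Ndufa5* and *Ndufa6* also had log2 fold changes of 0.15, with FDR values of 0.259 and 0.303. The difference between *Ndufs4* and its neighbors in the arm was not tested.

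Among the 18 accessory subunits of the membrane arm, *Ndufb11* was the only one that passed the test, 14 log2 fold changes were positive and the median was 0.04. *Ndufc1*, which encodes a small subunit that sits beside the *Ndufc2* product, had 143, 149, 131 and 128 CPM in WT muscles and 113.5, 125, 122 and 126 CPM in KL-/- muscles. The groups were separate by a narrow margin, and the difference of -0.18 (SE 0.066, FDR = 0.0937) did not pass. With the relation to gene length removed it was -0.27 and did pass (FDR = 0.0294), as it did with library totals. *Ndufc2* itself had a log2 fold change of 0.05 (FDR = 0.677). *Ndufb4* had the smallest difference of this arm, 0.003, with means of 47.1 and 47.2 CPM. *Ndufab1*, the acyl carrier protein that also serves mitochondrial fatty acid synthesis, had -0.10 (FDR = 0.334).

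Of the 7 assembly factors, *Ndufaf3* passed the test, and the others ranged from -0.12 for *Ndufaf1* to 0.10 for *Ndufaf5*. *Ndufaf4*, whose product partners that of *Ndufaf3*, averaged 52.1 CPM across WT and 51.4 CPM across KL-/- muscles, with a difference of -0.02 (95% interval -0.18 to 0.14, FDR = 0.873). *Ndufaf1*, a part of the assembly complex that builds the membrane arm, had an FDR of 0.172, and *Ndufaf5*, which modifies the core subunit encoded by *Ndufs7*, had an FDR of 0.348. *Ndufaf7*, a mitochondrial methyltransferase, had nearly equal means in the genotypes. Its values were 17.9, 20.03, 17.96 and 18.5 CPM in WT muscles and 17.6, 19.8, 18.2 and 18.9 CPM in KL-/- muscles. Its 95% interval of -0.16 to 0.16 on the log2 scale gives the range of differences that these libraries leave possible.

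The assembly factors known by other names gave 0 calls among 9 counted by edgeR. An unadjusted p under 0.05 was found in 3 of the 9, a share like that of all genes tested, 4031 of 12551. The median log2 fold change of the 9 factors was 0.11. DESeq2 and limma-voom each called 1 of them lower, *Timmdc1*. *Timmdc1*, a membrane-anchored factor for the proximal membrane arm, had 33.8 ± 3.66 CPM in KL-/- against 40.8 ± 1.14 CPM in WT muscles without overlap, with -0.27 (FDR = 0.0536). *Foxred1*, which acts in later assembly, had 0.19 (FDR = 0.130), and *Tmem70*, which also serves complex V assembly, had 0.16 (FDR = 0.141). *Coa1* and *Dmac1* were not analysed here.

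Both genes that carry the Nduf name without being part of complex I overlapped between genotypes. *Ndufa4* had 527, 492, 435 and 499 CPM in WT muscles and 501, 430.1, 529 and 539.8 CPM in KL-/- muscles, with the lowest value of each genotype in WT replicate 3 and KL-/- replicate 2. Its log2 fold change was 0.04 (SE 0.089, FDR = 0.812) and turned to -0.08 with library totals. *Ndufa4l2*, a hypoxia-induced gene, had 10.4, 12.6, 13.8 and 8.25 CPM in WT muscles and 8.93, 8.68, 9.53 and 10.1 CPM in KL-/- muscles. The WT muscles spread on both sides of the KL-/- muscles, and the difference of -0.27 (SE 0.152, 95% interval -0.61 to 0.07, FDR = 0.249) was the least precise of the family. It ran from -0.15 without WT replicate 3 to -0.39 without WT replicate 4 and passed the test in 0 of the 8 fits that left out 1 library.

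Levels between genes were compared per kilobase of exon. *Ndufa4* was the most abundant at 1004 CPM per kilobase, followed by the membrane-arm genes *Ndufb9* at 766 and *Ndufb8* at 646. Complex I subunits ranged over 13.9-fold, down to 54.9 CPM per kilobase for *Ndufa11*. Assembly factors were lower as a group, from 8.08 CPM per kilobase for *Ndufaf7* to 36.8 for *Ndufaf1*, so every assembly factor lay below every subunit. Exon lengths are those of all annotated exons of a gene, which lowers the value of a gene with long, rarely used exons. The lowest count of the family in any library was 137 reads, for *Ndufaf2*, far above the floor of 3 reads, which is 0.105 to 0.143 CPM.

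**Figure D3:**
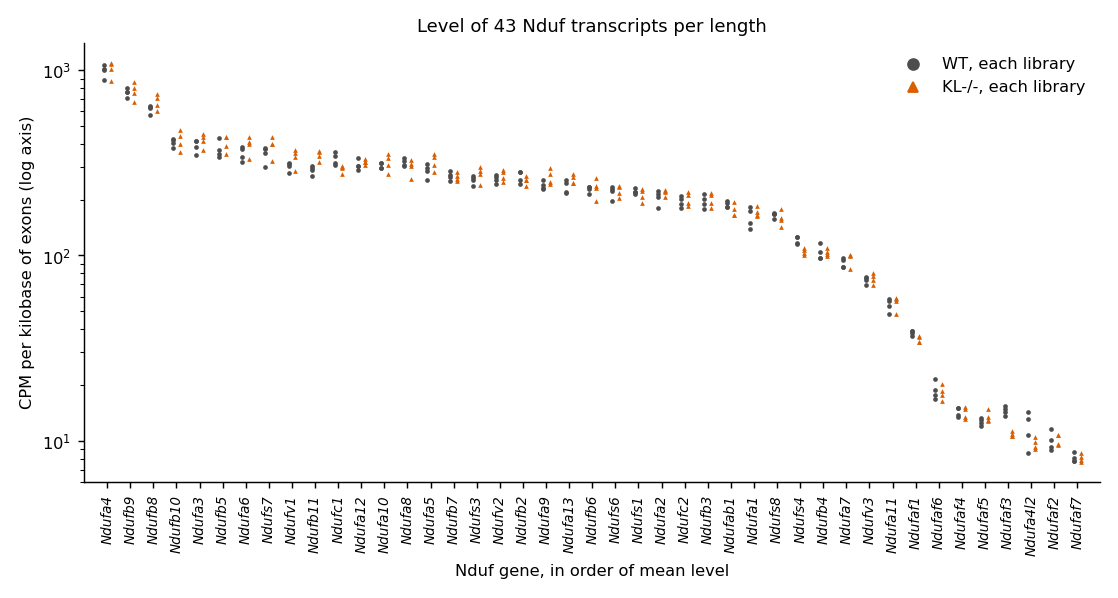
Level of 43 of the 44 Nduf genes in CPM per kilobase of exons on a logarithmic vertical axis, with genes in order of mean level on the horizontal axis and 1 point per library, WT as circles and KL-/- as triangles. Subunits fill the range from 54.9 to 766 CPM per kilobase and the 7 assembly factors lie between 8.08 and 36.8, with the genotypes overlapping in most genes.

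Within each genotype most complex I subunit genes were high or low in the same libraries, and the assembly factors only partly so. WT replicate 3 was the lowest WT library in 33 of the 44 genes, as it was in 29.1% of all genes, and KL-/- replicate 2 was the lowest KL-/- library in 29 of them, as it was in 30.1% of all genes. KL-/- replicate 4 was the highest KL-/- library in 32, as it was in 21.5% of all genes. Within WT, replicate 1 was highest in 20 genes and replicate 2 in 18. The median deviation of the family from each gene's mean over 8 libraries was 0.03, 0.03, -0.11 and -0.02 in WT replicates 1 to 4 and -0.02, -0.11, 0.06 and 0.10 in KL-/- replicates 1 to 4, on the log2 scale. One library of each genotype was therefore low by a similar amount. Nduf genes took 0.918% to 0.996% of all counts in WT libraries and 0.850% to 1.00% in KL-/- libraries. With WT replicate 3 and KL-/- replicate 2 both left out, the family's median log2 fold change was 0.04, 29 of the 44 values were positive and *Ndufaf3* was the only call. The assembly factors departed from the pattern in KL-/- replicate 2, where their median deviation was 0.09 and that of the subunits -0.11. *Ndufaf2*, *Ndufaf5*, *Ndufaf6* and *Ndufaf7* were the 4 Nduf genes highest in that library among KL-/- muscles, and *Ndufaf3* was at a similar level in all 4 KL-/- muscles.

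**Figure D4:**
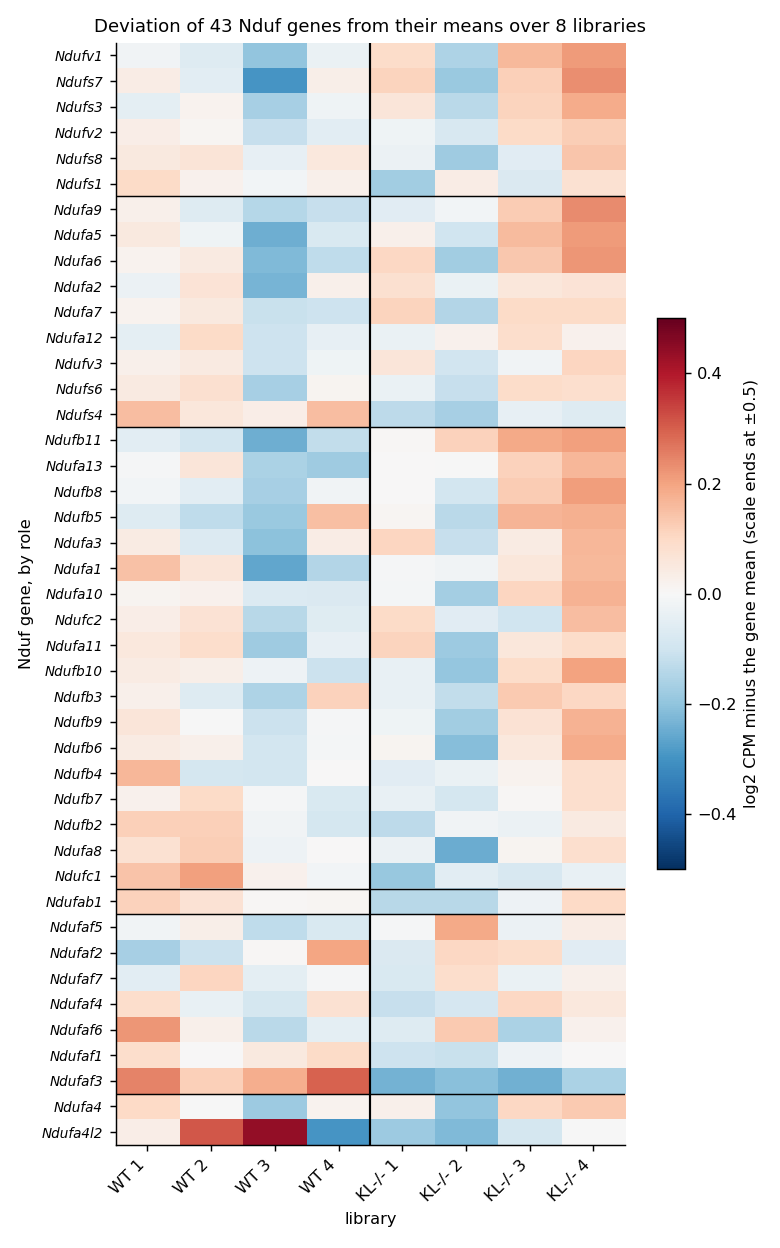
Log2 CPM of 43 of the 44 Nduf genes (vertical axis, grouped by role) in each of the 8 libraries (horizontal axis) minus each gene's mean over the libraries, in colors from blue (lower) to red (higher) on a scale that ends at ±0.5. WT replicate 3 and KL-/- replicate 2 form mostly blue columns and KL-/- replicate 4 a mostly red column, whereas *Ndufaf3* is red in all WT and blue in all KL-/- libraries.

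Other properties of the libraries also differed, some of them with genotype, and their part in the results was not tested. KL-/- replicate 2 had the highest summed level of 8 muscle fiber markers, 187980 CPM, followed by KL-/- replicate 4 at 153190 CPM. WT libraries had 114370 to 135427 CPM and KL-/- libraries 138374 to 187980 CPM. All 8 markers had positive log2 fold changes, with 1 called, *Actn3*. The list includes *Myh4*, the myosin gene of type IIb fibers, at 62798 CPM in KL-/- replicate 2, so the sum also depends on fiber type. The authors report a higher share of type IIb fibers in KL-/- TA muscle. Amount and type of fiber were not separated here. Fibroblast markers were lower in KL-/- muscle, with all 6 negative and *Dcn* and *Lum* called. Their sum was 879 to 3688 CPM in WT and 497 to 1650 CPM in KL-/- libraries. WT replicate 3 was highest, and WT replicate 2 was close to it at 3581 CPM. Macrophage markers summed to 39.6 to 92.6 CPM in WT and 29.7 to 58.4 CPM in KL-/- libraries, with 7 of 8 negative and *Adgre1* called lower. Endothelial markers summed to 369 to 556 CPM in WT and 332 to 366 CPM in KL-/- libraries, with 5 of 5 negative and *Kdr* called lower. Pericyte and smooth muscle markers summed to 296 to 456 CPM in WT and 320 to 402 CPM in KL-/- libraries, with 3 of 5 positive, 0 called by edgeR, DESeq2 or limma-voom and 0 at an unadjusted p under 0.05. DESeq2 called more of these markers, namely 4 fiber markers higher and 3 fibroblast, 5 macrophage and 2 endothelial markers lower, and limma-voom called 2, 1, 1 and 1. Of 4 adipocyte markers 2 were counted, at 1.02 to 5.74 CPM in WT and 1.16 to 20.9 CPM in KL-/- libraries. KL-/- replicate 3 alone carries another batch date, which cannot be told apart from that muscle. Libraries held 20860262 to 29273758 counts, and TMM factors were 1.02 to 1.05 in WT and 0.950 to 0.980 in KL-/- libraries.

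The other respiratory complexes were lowest in WT replicate 3 and KL-/- replicate 2 of their genotypes and highest in KL-/- replicate 4, as the Nduf subunits were. The median deviation in WT replicate 3 was -0.13 for complex I subunits, -0.11 for complex II, -0.06 for complex III, -0.08 for complex IV and -0.12 for complex V (ATP synthase), and in KL-/- replicate 2 it was -0.11, -0.12, -0.11, -0.13 and -0.07. In KL-/- replicate 4 the values were 0.14, 0.17, 0.13, 0.13 and 0.17. These profiles come from the same libraries and share their scaling factors.

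**Figure D5:**
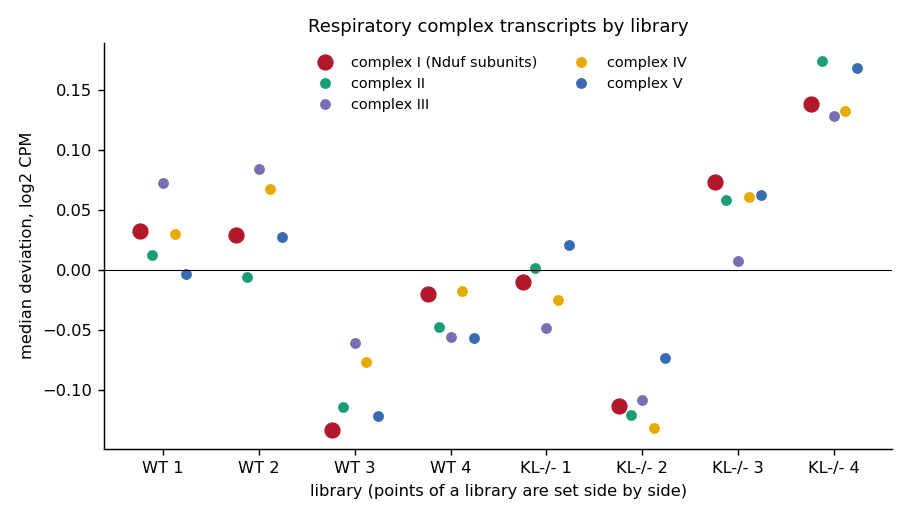
Median deviation, in log2 CPM, of the genes of each respiratory complex from their means over 8 libraries (vertical axis) in each library (horizontal axis), with 1 point per complex. For complex I subunits the values run from -0.13 in WT replicate 3 to 0.14 in KL-/- replicate 4, and complexes II to V lie near them in most libraries.

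Between genotypes, 7.35% of all genes were called higher and 6.67% lower, and 4031 of the 12551 had an unadjusted p under 0.05. The calls in complexes II to V are given beside those shares. Of 4 genes of complex II (succinate dehydrogenase) 0 were called by edgeR, with 0 at an unadjusted p under 0.05, and of 9 genes of complex III 0 were called by edgeR, with 1 at an unadjusted p under 0.05, *Uqcrb*. DESeq2 and limma-voom also called 0 in either complex. Their medians were 0.08 and -0.02. In complex IV, 1 of 14 genes was called, in the higher direction, with a median of -0.002 over the 14. The called gene was *Cox6a2*, the isoform of heart and skeletal muscle, which averaged 638 ± 62.1 CPM across WT and 816 ± 84.4 CPM across KL-/- muscles with overlap, a difference of 0.36 (FDR = 0.0413). In complex V, 1 of 16 genes was higher, *Atp5g2*, with 0.28 (FDR = 0.0458), and the median was 0.05. *Atp5g2* encodes the membrane ring subunit and averaged 85.3 CPM in WT muscles. *Atp5g1* and *Atp5g3* encode the same subunit, averaged 596 and 789 CPM in WT muscles, and had 0.04 (FDR = 0.806) and 0.05 (FDR = 0.686). *Atp5o*, for the stalk subunit, was separate between genotypes at 0.21 (FDR = 0.0584). DESeq2 called *Atp5g2* and *Atp5o* higher and limma-voom called 0 of the 16. The Nduf median of 0.04 lay among these medians.

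Of 11 genes for regulators of mitochondrial transcription, 0 were called by edgeR, with 4 at an unadjusted p under 0.05, 0 by limma-voom and 3 by DESeq2. An unadjusted p under 0.05 in edgeR was found in 4031 of all 12551 genes tested, which is a similar share. *Nrf1*, encoding nuclear respiratory factor 1, had 14.2 ± 1.08 CPM in KL-/- against 11.7 ± 0.535 CPM in WT muscles without overlap, with 0.27 (FDR = 0.0554). *Ppargc1b*, which encodes a coactivator of mitochondrial genes, had -0.51 (FDR = 0.0602), and *Esrrb*, an estrogen-related receptor, had -0.87 (FDR = 0.0949). These are the 3 genes that DESeq2 called.

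Promoters of the family were searched for 4 motifs on both strands, taking CGCATGCG for NRF1, CCGGAAG for ETS factors such as GABP, AAGGTCA for estrogen-related receptors and AAGATGGC for YY1. A RefSeq promoter was matched for 38 of the 44 genes, and shares among them are given beside those of 27025 mouse promoters of the same length. The YY1 motif stood in 7 (18.4%) against 2.88%, the NRF1 motif in 4 (10.5%) against 1.91%, the ETS motif in 5 (13.2%) against 9.12% and the receptor motif in 2 (5.26%) against 4.66%. At least 1 of the 4 was found in 18 Nduf promoters (47.4%) and in 17.3% of all promoters. Nduf promoters were also richer in G and C, with a median of 59.3% against 52.7%. The YY1 motif in the printed *Ndufs4* window starts at base 286, and the windows of *Ndufaf3* and *Ndufb11* hold none of the 4. The windows of *Ndufaf3* and *Ndufb11* lie wholly upstream of the counted genes, whereas that of *Ndufs4* reaches into its gene. The 3 windows are therefore not like for like. The other carriers of the YY1 motif were *Ndufa3*, *Ndufa9*, *Ndufb8*, *Ndufc1*, *Ndufs6* and *Ndufs7*. Carriers of that motif had a median log2 fold change of 0.10 and the other matched Nduf genes 0.04, with *Ndufs4* and *Ndufc1* negative and the remaining 5 positive. For the other motifs, carriers had the lower median. It was 0.01 against 0.04 for NRF1, -0.02 against 0.05 for ETS and -0.03 against 0.05 for the receptor. Carriers of any of the 4 had 0.01 against 0.05, and none of these differences was tested.

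Reads of some members can be shared with other genes. Exon bases overlapped another annotated gene in 13 of the 44, with the partner on the opposite strand in 11, and 7 had a pseudogene of at least 95% identity over at least 100 bases. *Ndufs3*, for example, matches *Gm12251* over 792 bases at 98.6% identity, and *Ndufa13* shares 375 bases with *Tssk6*. *Ndufaf3* and *Ndufs4* had neither kind of overlap.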

How the data were processed

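RNA sequencing of TA muscles gave 8 libraries, 4 per genotype. Per the labels and methods, the authors mapped reads with STAR (mm10) and made the deposited counts with featureCounts. Each library was made from 100 ng of RNA, called mRNA in the methods and total RNA in the sample records. The annotation release and the use of strand are not given in the sources used here. The deposited counts are whole numbers without normalization, and the edgeR filter on low counts kept all 12551 genes. Models were fitted with edgeR 4.0.16 under R 4.3.3 (TMM factors, genotype as the only term, newer quasi-likelihood form). Log2 CPM used a prior count of 2. Alternatives were DESeq2 1.42.0, limma-voom (limma 3.58.1), the likelihood ratio test, RLE factors, library totals, a minimum of 10 counts, the replicate number as a block, offsets for gene length (loess span 0.3) and each library left out in turn. The earlier quasi-likelihood form was run first, and the newer form was adopted as the main test after the data were seen. The joint omission of WT replicate 3 and KL-/- replicate 2 was also added after the data were seen. Fits were tested on simulated data. There the share of false calls was far above the threshold for DESeq2 and slightly above it for edgeR's quasi-likelihood test. Calls by DESeq2 alone are therefore weaker, and calls by edgeR near the threshold call for caution.

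Earlier results of these data were known when the family and the gene lists were chosen, and the members were then taken by symbol alone. Values per library are given for called members, the 3 largest differences in each direction, *Ndufa4*, *Ndufa4l2* and the highest and lowest member per kilobase, and for *Ndufc1*, chosen after its values were seen. Of other lists, up to 3 genes of smallest FDR are named, and of complex V also *Atp5g1* and *Atp5g3*, added after the data were seen. Separate values of 1 member are not reported here, while counts, ranges and medians include it. GENCODE M21 gave overlaps, blastn 2.17.0 gave near copies, and RefSeq GRCm38.p6 gave promoters. No 2 libraries were duplicates. The series describes the mice as littermates, and which of them shared a litter is not stated. The tests weigh each genotype difference against the variation between these mice, which are treated as independent. Litter could not be modelled.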

Additional observations from a re-analysis of the deposited data

Results flagged for a closer look

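Within a genotype, 2 values stood apart from the other 3 muscles by Dixon's ratio, out of 88 groups of 4 examined, where chance gives about 1 in 20. *Ndufa7*, an accessory subunit gene of the hydrophilic arm, had 101.58 CPM in KL-/- replicate 2, where the other KL-/- muscles had 120.07 to 121.42 CPM. *Ndufs8*, a core subunit gene, had 161.8 CPM in WT replicate 3, where the other WT muscles had 172.29 to 174.1 CPM. These are the libraries in which most Nduf transcripts were lowest.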

How the results depend on the processing

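With TMM factors 1 Nduf gene was higher and 2 were lower. The count of lower genes was 1 with RLE factors, 1 with the likelihood ratio test and 1 with the earlier edgeR form. Library totals gave 0 higher and 5 lower, with a median log2 fold change of -0.0802. The replicate block gave 0 higher and 1 lower, and 348 genes higher and 323 lower over the whole table in place of 922 and 837, and under it *Ndufb11* had an FDR of 0.105 and *Ndufs4* of 0.118. Same-numbered libraries had correlations of -0.15, 0.18, -0.37 and 0.02 between their deviations, and 1 of the 4 WT libraries correlated best with its own number. These values gave no sign of pairing by number but cannot exclude it, since which mice shared a litter is not stated. Leaving out WT replicate 3 and KL-/- replicate 2 together gave 0 higher and 1 lower. Leaving out 1 library gave 0 to 2 higher and 1 to 1 lower, with medians of 0.0051 to 0.095. Over the whole table, DESeq2 called 1313 genes higher and 1143 lower, the fit without WT replicate 2 called 404 and 376, and the fit without KL-/- replicate 2 called 1521 and 1234. *Ndufaf7*, with nearly equal means, turned to 0.00701 with RLE factors, 0.00687 with DESeq2, 2.1e-05 with the block and 0.0673 with length offsets, and ran from -0.0206 to 0.0362 when 1 library was left out. *Ndufa4* turned to -0.0820 with library totals and -0.0387 with length offsets, and ran from -0.0168 to 0.110 when 1 library was left out. The causes were not tested. Among the alternatives that kept all libraries, DESeq2, limma-voom and a minimum of 10 counts kept the 3 calls. Using no filter changed nothing, since the filter removed no gene.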
